A study of Mus musculus with 6 samples.

Results

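The genes described here encode the tricarboxylic acid (TCA) cycle, the enzymes that feed and drain it, and the carriers and dehydrogenases that move reducing power across the mitochondrial inner membrane. They were chosen by name and function as a list of 36 symbols, out of 18193 genes on the array. Each was read by the brightest of the probe sets annotated to its symbol alone, by the mean over 6 arrays. All 36 were found, with 87 probe sets between them.

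The cells were MIN6, a mouse insulinoma line that secretes insulin in response to glucose and stands in for beta cells in culture. There were 3 arrays of MIN6 cells given an siRNA against Hlxb9, a homeobox transcription factor whose gene symbol is Mnx1, and 3 arrays of MIN6 cells given a scrambled negative control siRNA. In both groups the siRNA was delivered by nucleofection and a lipid reagent and total RNA was taken 72 hours later. Hlxb9 siRNA samples went on arrays only where a western blot showed that Hlxb9 protein had been lowered by more than 75%, and the siRNAs came from different suppliers, so target and supplier cannot be told apart. The labels also call the samples sorted subpopulations and name no gate.

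Pyruvate enters the cycle as acetyl-CoA, through the pyruvate dehydrogenase complex, or as oxaloacetate, through pyruvate carboxylase, and beta cells are known for heavy use of the second route. Primary beta cells keep little lactate dehydrogenase, so cytosolic NADH made in glycolysis is passed to mitochondria by the malate-aspartate and glycerol phosphate shuttles. Carbon that leaves as citrate, malate or isocitrate is turned in the cytosol into acetyl-CoA and NADPH, which have been studied as signals for insulin release.

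Nearly all differences in these genes were small. Values are log2 array signals, and a difference is Hlxb9 siRNA minus control siRNA. Differences of the 36 genes lay between -0.42 and 0.33, and 18 of the 36 were under 0.1 in size, against 42.8% of all genes. None of the 36 passed limma's threshold of an adjusted p of 0.05, nor did any of the 45037 probe sets tested (0% called), of which 3430 had an unadjusted limma p under 0.05 (7.62%). The groups were apart on the brightest probe set of 7 genes (19.4%, near the 17.3% of all genes), with lower signals after Hlxb9 siRNA of Acly, the cytosolic enzyme that splits exported citrate, Idh1 and Slc25a12, and higher signals of Gpd2, Got1, Got2 and Idh3b. Because RNA came from bulk cultures, less RNA per cell and fewer cells of a kind cannot be told apart.

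Mnx1 itself read 7.53, 7.41 and 7.28 on the Hlxb9 siRNA arrays, against 7.82, 7.50 and 7.77 on the control arrays, a difference of -0.29 ± 0.13 (SE, limma adjusted p = 0.659). The groups overlapped, so the Mnx1 transcript did not separate them on these arrays. All 9 measured beta cell markers of 11 listed, Ins2 and Pdx1 among them, were brighter than the median of all probe sets. Of 20 measured markers of other cells, 13 were dimmer than that median, Ptprc, Pecam1, Cdh5, Krt19 and Cpa1 included. Gcg, Irx2, Sst, Cela1, Col1a1, Cd68 and Ttr were brighter, so that immune, acinar and stromal markers stood on both sides. The measured alpha cell markers, Gcg and Irx2, were brighter, and of the delta cell markers Sst was brighter and Hhex dimmer. Gcg and Sst were brighter than 99.2% and 99.4% of all probe sets, near the beta cell marker G6pc2 (99.3%). The summed signal of the 20 ran from 14.89 to 15.14 log2 after Hlxb9 siRNA and from 15.03 to 15.11 after control siRNA. That sum is set mostly by Ttr, Sst and Gcg, the brightest of the 20, and says little about the dimmer markers. Cd68 was the only 1 of the 20 with an unadjusted limma p under 0.05 (7.95% of all genes). Its difference was 0.54 ± 0.13 (SE, limma adjusted p = 0.645), with groups apart. Control replicate 3 stood apart: its Gapdh control probe sets differed by 2.13 log2 between the 3' and 5' ends of the transcript, where the remaining arrays lay at 0.65 to 0.78.

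Upstream sequence of 33 of the 36 genes was held in RefSeq's promoter table for GRCm38.p6. The 250 bases before each start were searched on both strands for TAATTA, a core bound by many homeodomain factors, for CCAAT, the NF-Y box, for AAGGTCA, the core bound by estrogen-related receptors, and for TCACNCCAC, a form of the sterol regulatory element. TAATTA was found for 3 of the 33 genes, Pdha1, Cs and Me1 (9.09%, against 5.65% of 27025 genes). CCAAT was found for 17 (51.5%, against 37.5%), AAGGTCA for Got1 alone (3.03%, against 4.70%) and TCACNCCAC for none (0%, against 1.22%). A match describes letters and not a bound site. The windows with TAATTA are shown first, since Mnx1 is a homeodomain factor. In capitals are matches to any of the 4 motifs, none of which overlap.
Pdha1, chrX:160138431-160138680, strand minus: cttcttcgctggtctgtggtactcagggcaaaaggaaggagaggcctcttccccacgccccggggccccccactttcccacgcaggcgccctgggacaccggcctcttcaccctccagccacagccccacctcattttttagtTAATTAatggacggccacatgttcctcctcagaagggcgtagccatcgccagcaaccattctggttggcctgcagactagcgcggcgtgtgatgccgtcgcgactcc
Cs, chr10:128337477-128337726, strand plus: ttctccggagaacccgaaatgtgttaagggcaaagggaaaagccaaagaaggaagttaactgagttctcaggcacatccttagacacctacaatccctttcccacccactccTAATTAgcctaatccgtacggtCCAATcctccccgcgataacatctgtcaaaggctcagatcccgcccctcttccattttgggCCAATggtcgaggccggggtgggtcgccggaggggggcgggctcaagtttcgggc
Me1 second window, chr9:86687278-86687527, strand minus: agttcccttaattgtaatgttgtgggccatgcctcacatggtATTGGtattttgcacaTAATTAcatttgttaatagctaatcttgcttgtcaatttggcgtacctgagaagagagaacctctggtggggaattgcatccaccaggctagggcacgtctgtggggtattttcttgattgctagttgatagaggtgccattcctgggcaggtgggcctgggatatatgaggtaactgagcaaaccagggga
In Pdha1 the TAATTA began 107 bases before the start, in Cs 138 and in the second window of Me1 192. The windows of Acly, Got1 and Gpd2 follow because these are 3 of the 7 genes whose groups did not overlap. That of Got1 held 5 CCAAT boxes and an AAGGTCA, while those of Acly and Gpd2 held none of the 4 motifs.
Acly, chr11:100528001-100528250, strand minus: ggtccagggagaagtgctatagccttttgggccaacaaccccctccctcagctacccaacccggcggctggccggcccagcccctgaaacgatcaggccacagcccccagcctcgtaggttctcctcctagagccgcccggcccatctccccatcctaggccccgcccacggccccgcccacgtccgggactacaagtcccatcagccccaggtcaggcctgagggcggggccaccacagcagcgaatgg
Got1, chr19:43524606-43524855, strand minus: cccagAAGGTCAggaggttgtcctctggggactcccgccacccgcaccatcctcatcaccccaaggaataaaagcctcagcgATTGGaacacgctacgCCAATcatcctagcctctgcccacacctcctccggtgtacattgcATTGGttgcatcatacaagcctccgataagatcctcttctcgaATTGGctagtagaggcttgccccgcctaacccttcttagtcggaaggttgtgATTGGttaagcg
Gpd2 first window, chr2:57237428-57237677, strand plus: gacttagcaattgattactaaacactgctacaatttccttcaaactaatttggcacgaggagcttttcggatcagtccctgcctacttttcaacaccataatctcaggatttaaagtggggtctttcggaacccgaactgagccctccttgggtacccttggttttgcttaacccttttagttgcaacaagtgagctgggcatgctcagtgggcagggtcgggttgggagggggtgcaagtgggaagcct
Gpd2 second window, chr2:57238132-57238381, strand plus: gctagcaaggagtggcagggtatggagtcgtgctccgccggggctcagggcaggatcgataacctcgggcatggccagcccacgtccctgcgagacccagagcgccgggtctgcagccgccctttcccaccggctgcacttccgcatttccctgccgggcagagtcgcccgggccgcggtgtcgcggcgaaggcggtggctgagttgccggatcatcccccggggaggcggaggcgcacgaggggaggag

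**Figure D1:**
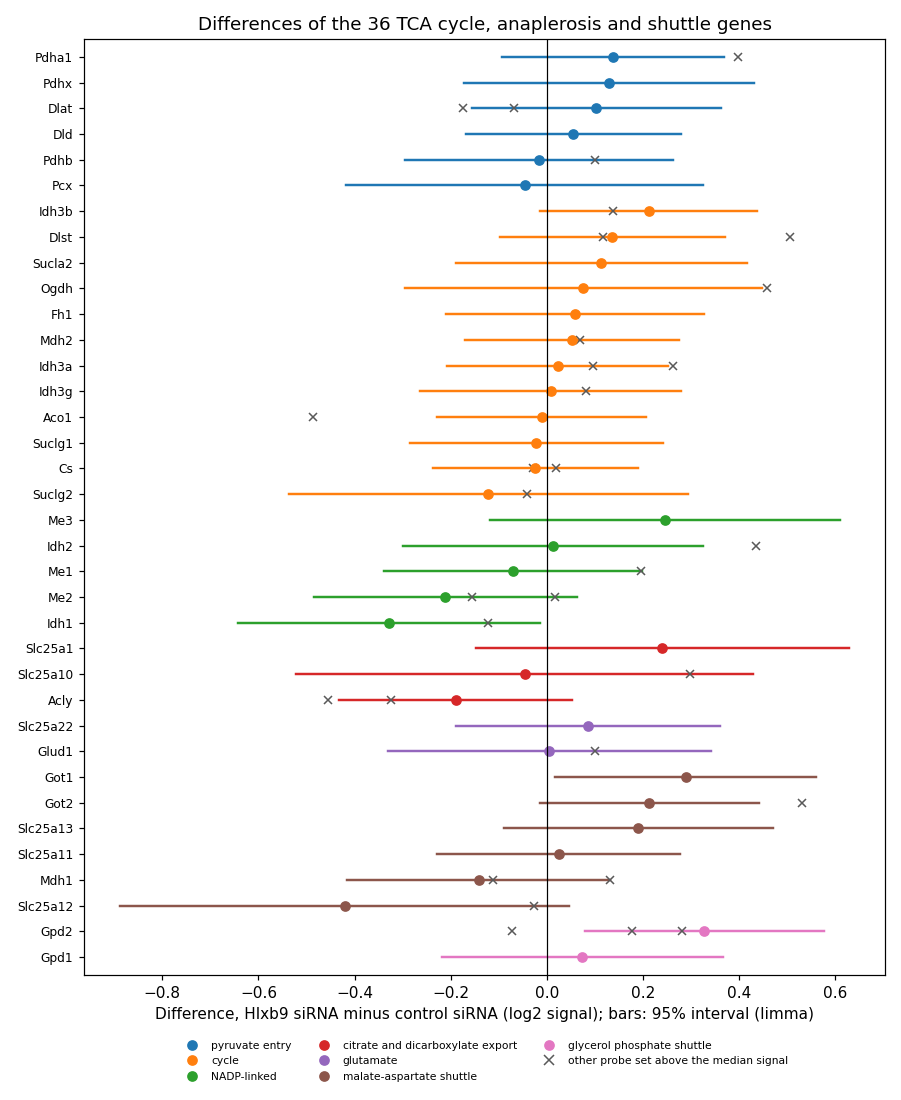
Difference in log2 signal (horizontal axis, Hlxb9 siRNA minus control siRNA) for each of the 36 genes, grouped by role, with limma's 95% interval and crosses for other probe sets brighter than the median of all probe sets. Points lie between -0.42 (Slc25a12) and 0.33 (Gpd2), and the intervals of Gpd2, Got1 and Idh1 leave out 0 before any adjustment.

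Taken by direction, 23 genes were higher and 13 lower after Hlxb9 siRNA (63.9% higher, against 50.6% of all genes), with a median difference of 0.039 against 0.0023 over all genes. This count by direction depended on scaling, since centring each array on its median gave 18 higher and 18 lower and a median of -0.013. Centring lowers the difference of every gene by the same amount, so the median over all genes falls as well. The distance between these medians is therefore the same after centring. The direction depended on single arrays too, with a median of 2.2e-04 without control replicate 1 and of 0.11 without control replicate 3. At an unadjusted limma p under 0.05 there were 2 genes higher (4.21% of all genes) and 1 lower (3.74%). With the replicate number as a block there was 1 higher, Gpd2, and 1 lower, Slc25a12. The groups did not overlap for 4 higher genes (9.55% of all genes) and 3 lower genes (7.75%). Both directions together, 8.33% of the 36 had such a p, against 7.95% of all genes, and 19.4% had groups apart, against 17.3%. These shares stood near the background. Over all 87 probe sets of the 36 genes, 11 had an unadjusted p under 0.05 (12.6%, against 7.62% of all probe sets) and 19 had groups apart (21.8%, against 15.6%). These counts take several probe sets of 1 gene as separate, and Acly alone gave 5 of the 19.

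Entry of pyruvate was read by 6 genes, of which 4 were higher and 2 lower, and 3 differed by under 0.1. Pdha1, the E1 alpha subunit of pyruvate dehydrogenase, read 11.01, 11.10 and 11.11 after Hlxb9 siRNA, against 10.86, 11.01 and 10.94 after control siRNA. The groups overlapped slightly, with a difference of 0.14 ± 0.10 (SE, limma adjusted p = 0.737). A dimmer Pdha1 probe set separated them fully, at 8.18, 8.22 and 8.10 after Hlxb9 siRNA, against 7.81, 7.79 and 7.71 after control siRNA. That difference was 0.40 ± 0.10 (SE), 31.7% higher, and did not pass (limma adjusted p = 0.645). Without control replicate 3 it was 0.37.

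The other subunits of the complex had overlapping groups on every probe set. For Pdhb, the E1 beta subunit, the difference was -0.0165, and its second probe set gave 0.10. Pdhx, which anchors E3 to the core, differed by 0.13. Dlat, the E2 acetyltransferase, differed by 0.10 on its brightest probe set and by -0.068 and -0.17 on the others. Dld, the E3 dehydrogenase shared with the 2-oxoglutarate complex, read 9.30, 9.36 and 9.23 after Hlxb9 siRNA, against 9.26, 9.26 and 9.21 after control siRNA. Its difference was 0.055, and a dim second probe set averaging 2.69 after Hlxb9 siRNA and 2.93 after control siRNA differed by -0.24. Pcx, pyruvate carboxylase and the main anaplerotic enzyme of beta cells, read 9.01, 8.82 and 8.85 after Hlxb9 siRNA, against 8.74, 8.79 and 9.28 after control siRNA. The high value was control replicate 3, and the difference was -0.046 ± 0.16 (SE) with that array and 0.13 without it.

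Among 12 genes of the cycle, 8 were higher and 4 lower, 8 of them by under 0.1. Cs, citrate synthase, stood at 12.89 ± 0.016 after Hlxb9 siRNA and 12.92 ± 0.019 after control siRNA (SD, n = 3 each). Its 95% interval ran from -0.24 to 0.19, and its other probe sets differed by -0.029 and 0.018. Mdh2, the mitochondrial malate dehydrogenase, differed by 0.053 and 0.069 on its probe sets, and Fh1, fumarase, by 0.059.

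The NAD-linked isocitrate dehydrogenase, a step that calcium and ADP speed up, has 3 kinds of subunit, and their probe sets above the median signal all lay above 0. Idh3b, a regulatory subunit, read 12.10, 12.01 and 12.04 after Hlxb9 siRNA, against 11.84, 11.90 and 11.77 after control siRNA. The groups did not overlap, and the difference was 0.21 ± 0.10 (SE, limma adjusted p = 0.664). The second Idh3b probe set differed by 0.14, also without overlap, and a dim one by -0.11. Idh3a, the catalytic subunit, differed by 0.022, 0.26 and 0.096 on its brighter probe sets, and Idh3g, the other regulatory subunit, by 0.0082 and 0.081. After centring, the representing probe sets of Idh3a and Idh3g stood at -0.030 and -0.044 and that of Idh3b at 0.16.

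With all 6 arrays, the 2-oxoglutarate dehydrogenase complex was higher on every probe set of its own subunits. Ogdh, its E1, read 9.84, 9.85 and 9.83 after Hlxb9 siRNA, against 9.51, 9.66 and 10.12 after control siRNA, so that control replicate 3 alone lay above. Its difference was 0.076 ± 0.16 (SE) with all arrays and 0.25 without control replicate 3 (limma adjusted p = 0.506), but -0.050 without control replicate 1. On the second Ogdh probe set control replicate 3 was the lowest array, at 7.98, and the difference was 0.46, or 0.25 without it. Dlst, its E2, differed by 0.14, and by 0.12 to 0.51 on the other 3 probe sets. The 0.51 was 0.10 without control replicate 3, the lowest array there.

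Succinyl-CoA ligase had differences of both signs with all 6 arrays. Sucla2, the ADP-forming beta subunit, read 10.95, 10.89 and 10.89 after Hlxb9 siRNA, against 10.59, 10.76 and 11.03 after control siRNA. Its difference of 0.11 ± 0.13 (SE), which was 0.23 without control replicate 3 and 0.012 without control replicate 1, came with dim probe sets at 0.42 and -0.29. Suclg2, the GTP-forming beta subunit, differed by -0.12, and Suclg1, the alpha subunit that both share, by -0.022. Without control replicate 3 these were 0.062 and 0.051. Aco1, the cytosolic aconitase that doubles as an iron sensor, differed by -0.011 on its brightest probe set. Another Aco1 probe set, whose _x_at suffix marks probes that can bind related sequences, read 9.06, 9.30 and 9.43 after Hlxb9 siRNA, against 9.60, 9.72 and 9.92 after control siRNA. There the groups did not overlap, with a difference of -0.49 ± 0.14 (SE, limma adjusted p = 0.645), so the value for Aco1 depended on which probe set was read.

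**Figure D2:**
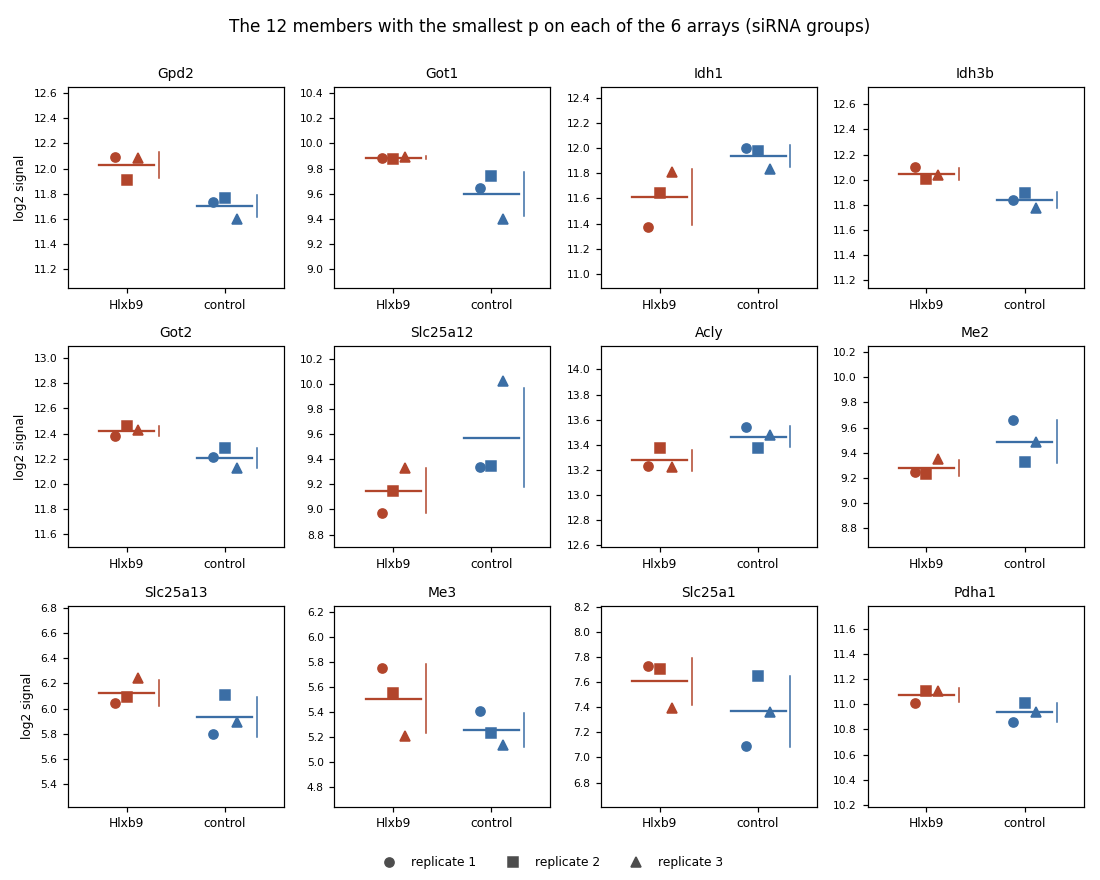
Log2 signal (vertical axis, own range in each panel) on each array for the 12 genes with the smallest p, Hlxb9 siRNA left and control siRNA right, with group means (horizontal lines) and SD (vertical lines), n = 3 each. Symbols mark the replicate numbers, and the groups are apart for Gpd2, Got1, Idh1, Idh3b, Got2, Slc25a12 and, narrowly, Acly.

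The isocitrate dehydrogenases outside the NAD-linked complex and the malic enzymes, most of which make NADPH, had 2 of 5 genes higher and 3 lower. Idh1, the cytosolic isocitrate dehydrogenase, read 11.371, 11.645 and 11.814 after Hlxb9 siRNA, against 11.9998, 11.980 and 11.834 after control siRNA. All Hlxb9 siRNA values were lower, with Hlxb9 siRNA replicate 3 only just below control replicate 3. The difference was -0.33 ± 0.14 (SE), or -20.3% in signal (limma adjusted p = 0.653), and -0.21 without Hlxb9 siRNA replicate 1. The second Idh1 probe set differed by -0.12 and its groups overlapped. Idh2, the mitochondrial form, differed by 0.012. A dimmer Idh2 probe set differed by 0.44, or by 0.12 without control replicate 3, the lowest array there at 5.90.

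The malic enzymes, which release pyruvate from malate, had differences of both signs. Me1, the cytosolic form, differed by -0.0705 on its brightest probe set and by 0.20 on the other. Me2, the mitochondrial NAD-linked form, read 9.25, 9.23 and 9.35 after Hlxb9 siRNA, against 9.66, 9.32 and 9.48 after control siRNA. The groups overlapped at control replicate 2, and the difference was -0.21 ± 0.12 (SE, limma adjusted p = 0.686), with other probe sets from -0.16 to 0.017. Me3, the mitochondrial NADP-linked form, had a signal close to the median of all probe sets, 5.16. It read 5.75, 5.55 and 5.21 after Hlxb9 siRNA, against 5.41, 5.23 and 5.14 after control siRNA, a difference of 0.25 ± 0.16 (SE) with overlap.

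Acly, ATP-citrate lyase, turns exported citrate into cytosolic acetyl-CoA and oxaloacetate, and all 6 of its probe sets were lower after Hlxb9 siRNA. The brightest, of the _x_at kind, read 13.23, 13.38 and 13.22 after Hlxb9 siRNA, against 13.54, 13.38 and 13.48 after control siRNA. The arrays numbered 2 were level there, and the difference was -0.19 ± 0.10 (SE, limma adjusted p = 0.684). The second, a plain probe set, separated the groups by a wide margin, at 12.486, 12.584 and 12.496 after Hlxb9 siRNA, against 13.0005, 12.886 and 13.045 after control siRNA. That difference was -0.46 ± 0.10 (SE), or -27.1% in signal, with a 95% interval from -0.69 to -0.22 and limma adjusted p = 0.645. It was -0.42 without control replicate 3. The next brightest Acly probe set, at 8.97, 9.20 and 9.15 after Hlxb9 siRNA, against 9.56, 9.51 and 9.20 after control siRNA, differed by -0.32 ± 0.13 (SE). The remaining 3 were dim and differed by -0.73, -0.11 and -0.074. For 5 of the 6 the groups did not overlap, although the 6 probe sets read one transcript pool and are not replicates. The mean over them was -0.31 (limma adjusted p = 0.581).

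**Figure D3:**
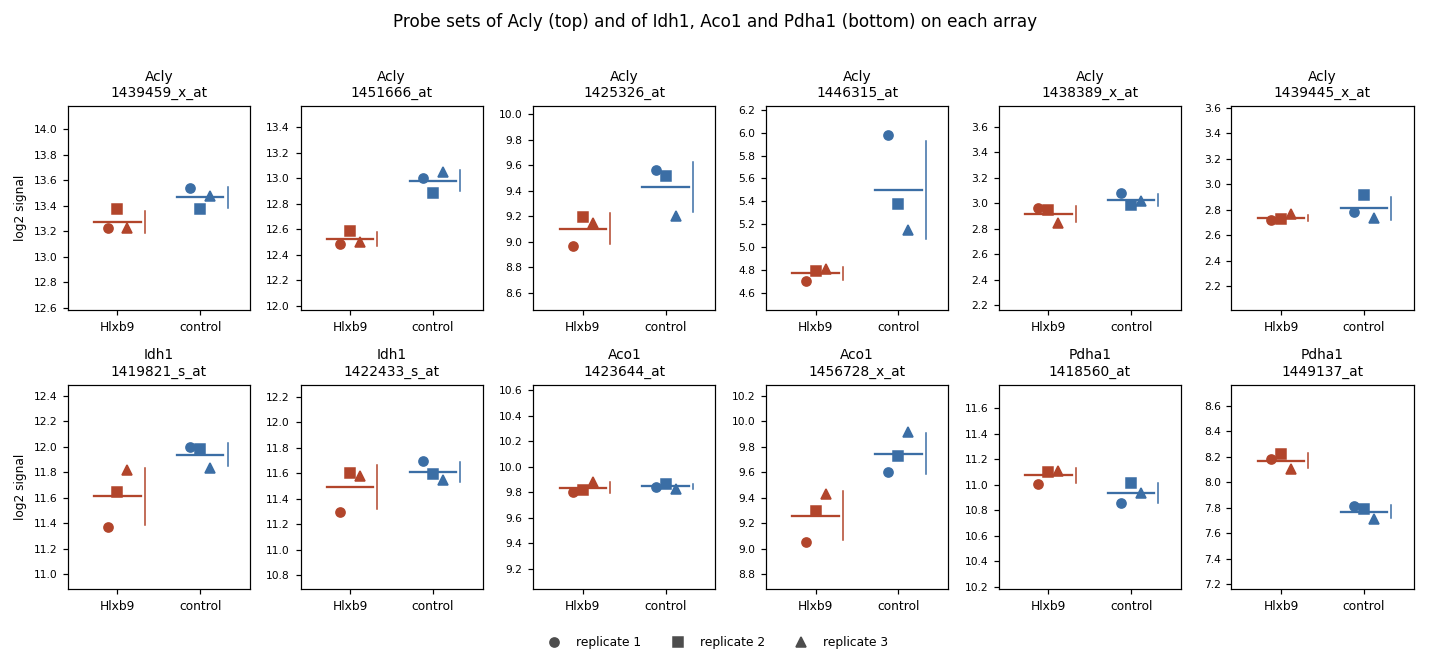
Log2 signal (vertical axis, own range in each panel) on each array for the 6 probe sets of Acly (top row) and for probe sets of Idh1, Aco1 and Pdha1 brighter than the median of all probe sets (bottom row), Hlxb9 siRNA left and control siRNA right, with means and SD (n = 3 each). The second Acly probe set has every Hlxb9 siRNA value at or below 12.584 and every control value at or above 12.886, and the probe sets of Aco1 differ from each other, at -0.011 and -0.49.

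The carriers that export citrate and dicarboxylates had overlapping groups. Slc25a1, the mitochondrial citrate carrier, read 7.73, 7.70 and 7.39 after Hlxb9 siRNA, against 7.09, 7.65 and 7.36 after control siRNA. Its difference of 0.24 ± 0.17 (SE, limma adjusted p = 0.729) was 0.10 without control replicate 1, the lowest array. Slc25a10, the dicarboxylate carrier that exchanges malate or succinate for phosphate, read 9.04, 8.95 and 8.72 after Hlxb9 siRNA, against 8.64, 8.80 and 9.41 after control siRNA. Its difference was -0.046 with all arrays and 0.18 without control replicate 3. A dimmer probe set differed by 0.30, or by 0.055 without that array. The genes of glutamate handling differed by less than their SE. Glud1, glutamate dehydrogenase, differed by 0.0048 ± 0.14 and 0.0997 ± 0.14 (SE) on its probe sets, and Slc25a22, a mitochondrial glutamate carrier, by 0.085 ± 0.12 (SE).

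The malate-aspartate shuttle had 4 of 6 genes higher and 2 lower. Got1, the cytosolic aspartate aminotransferase, read 9.89, 9.87 and 9.89 after Hlxb9 siRNA, against 9.65, 9.74 and 9.40 after control siRNA. The Hlxb9 siRNA values were nearly equal and all above the controls, with a difference of 0.29 ± 0.12 (SE), 22.2% higher (limma adjusted p = 0.653). Without control replicate 3, the lowest array, it was 0.19. Got2, the mitochondrial aminotransferase, read 12.38, 12.46 and 12.43 after Hlxb9 siRNA, against 12.21, 12.28 and 12.13 after control siRNA. Its difference was 0.21 ± 0.10 (SE, limma adjusted p = 0.664), again with no overlap.

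A second Got2 probe set differed by 0.53, or by 0.12 without control replicate 3, which read 7.56 there. A dim Got2 probe set, averaging 3.03 after Hlxb9 siRNA and 3.41 after control siRNA, differed by -0.38 without overlap. Differences within the 3 pairs of equal replicate number were 0.24, 0.13 and 0.49 for Got1 and 0.17, 0.17 and 0.30 for Got2. All had to lie above 0, since the groups of both genes do not overlap on their representing probe sets.

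The other genes of this shuttle were less even. Mdh1, the cytosolic malate dehydrogenase, read 13.29, 13.39 and 13.39 after Hlxb9 siRNA, against 13.37, 13.44 and 13.69 after control siRNA, on an _x_at probe set. Its difference was -0.14 ± 0.12 (SE) there, -0.11 on a second _x_at probe set and 0.13 on a plain one whose groups did not overlap. Slc25a11, the oxoglutarate carrier, differed by 0.024. Slc25a12, the calcium-activated aspartate-glutamate carrier aralar, read 8.97, 9.15 and 9.33 after Hlxb9 siRNA, against 9.34, 9.35 and 10.02 after control siRNA. Its difference of -0.42 ± 0.20 (SE, limma adjusted p = 0.666) was the largest in size among the 36 representing probe sets, and it was -0.19 without control replicate 3. The groups met almost exactly, between Hlxb9 siRNA replicate 3 and control replicate 1, and a dimmer probe set differed by -0.028. Slc25a13, the sister carrier citrin, read 6.05, 6.09 and 6.24 after Hlxb9 siRNA, against 5.80, 6.11 and 5.90 after control siRNA, a difference of 0.19 ± 0.12 (SE) with overlap.

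In the glycerol phosphate shuttle, Gpd2, the mitochondrial FAD-linked dehydrogenase that beta cells hold in unusual amounts, had the smallest p of the 36. It read 12.09, 11.91 and 12.08 after Hlxb9 siRNA, against 11.73, 11.77 and 11.60 after control siRNA. The groups did not overlap, with a difference of 0.33 ± 0.11 (SE), a signal 25.5% higher (limma adjusted p = 0.645). It stayed between 0.28 and 0.39 when any 1 array was left out. The other Gpd2 probe sets differed by 0.18, 0.28 and -0.073, each with overlap, and the mean over all 4 was 0.18. Without control replicate 3 these 3 were 0.21, 0.048 and -0.34, so the probe sets of Gpd2 did not share a direction. Gpd1, the cytosolic partner, differed by 0.074 ± 0.13 (SE), and its 3 dim probe sets by -0.12 to 0.029.

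Enzymes that exist in a cytosolic and a mitochondrial form can be set side by side by their differences, which are measured within each probe set. Cytosolic Idh1 stood at -0.33 and mitochondrial Idh2 at 0.012. Cytosolic Mdh1 was at -0.14 and mitochondrial Mdh2 at 0.053. Among malic enzymes, cytosolic Me1 stood at -0.0705, and mitochondrial Me2 and Me3 at -0.21 and 0.25. For the aminotransferases the values were 0.29 for cytosolic Got1 and 0.21 for mitochondrial Got2. For the glycerol phosphate dehydrogenases they were 0.074 for Gpd1 and 0.33 for Gpd2. All these are values of the brightest probe set of each gene, and other probe sets changed some of them. For Mdh1 a plain probe set gave 0.13, a second _x_at one -0.11 and the mean over its probe sets -0.011. The other probe set of Me1 gave 0.20 and the dimmer one of Idh2 0.44. No contrast between compartments was tested.

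Control replicate 3 carried much of the variation among these genes. It was the highest of the 6 arrays for 16 of the 36 (44.4%, against 35.8% of all genes) and the lowest for 8 (22.2%, against 22.3%). Control replicate 1 was the lowest for 16 (44.4%, against 22.0% of all genes). Deviations from each gene's mean over the 6 arrays had an SD of 0.228 on control replicate 3, against 0.0869 to 0.157 on the other arrays. Over all genes that SD was 0.296 on control replicate 3, against 0.146 to 0.196 on the other arrays. Without control replicate 3, 28 of the 36 were higher (77.8%, against 56.7% of all genes), with a median of 0.11 against 0.027 over all genes. An unadjusted limma p under 0.05 was then reached by Ogdh and Gpd2, higher (2 genes, 6.83% of all genes), and by Idh1, lower (1 gene, 3.36%). The groups then did not overlap for 13 higher genes (20.8% of all genes) and 3 lower genes (11.5%), again with none past the threshold (smallest limma adjusted p = 0.504). Genes that joined were Pcx, Pdhb, Pdhx, Idh2, Idh3g, Ogdh, Dlst, Sucla2 and Glud1. The part of that array's 3' to 5' imbalance in these values was not tested. With arrays weighted by their fit, control replicate 3 had the lowest weight, 0.204. None of the 36 then passed on its brightest probe set (2.5% of all genes did), while 4 of their 87 probe sets did (2.51% of all probe sets). These were the dimmer Pdha1 probe set, 2 of Acly and the _x_at one of Aco1, and with weights but without control replicate 3 none passed.

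The pairs of equal replicate number showed the same array. After Hlxb9 siRNA 27 of the 36 were higher within pair 1 and 26 within pair 2, against 13 within pair 3. Over all genes 59.1%, 55.2% and 42.2% were higher in those pairs. Higher in every pair were 10 genes (27.8%, against 19.0% of all genes), and lower in every pair were 6 (16.7%, against 16.5%).

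**Figure D4:**
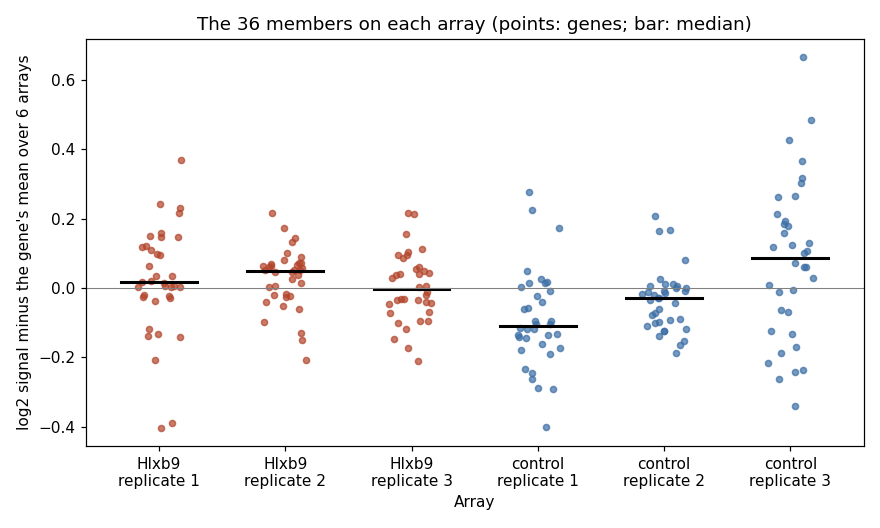
Deviation of each of the 36 genes from its mean over 6 arrays (vertical axis, log2), by array, with a bar at the median. Medians lie at 0.017, 0.049 and -0.0044 on the Hlxb9 siRNA arrays and at -0.11, -0.029 and 0.087 on control replicates 1, 2 and 3, the last having the widest spread.

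A further 33 genes of the pathway were listed, among them succinate dehydrogenase, the pyruvate dehydrogenase kinases and phosphatases, and pyruvate and nucleotide carriers. Of these, 25 had a probe set, and 19 of them were higher while 6 were lower (76% higher, against 50.6% of all genes). Their median difference was 0.11, against 0.0023 over all genes, and none passed. Without control replicate 3, 20 were higher (80%, against 56.7% of all genes). Centring lowers the differences of this list by the same amount as those of the 36. The count by direction after centring was not taken for this list. Nnt, the transhydrogenase that makes mitochondrial NADPH, read 11.40, 11.41 and 11.44 after Hlxb9 siRNA, against 11.61, 11.71 and 11.99 after control siRNA, a difference of -0.35 ± 0.12 (SE) on an _x_at probe set and -0.22 on a plain one. Gpt, an alanine aminotransferase, read 7.44, 7.55 and 7.54 after Hlxb9 siRNA, against 7.24, 7.35 and 7.11 after control siRNA, a difference of 0.28 ± 0.11 (SE), and its other probe set differed by 0.35, with no overlap on either. Mpc1, a subunit of the mitochondrial pyruvate carrier, was at 0.22 without overlap, and Pdp1, which switches pyruvate dehydrogenase on, at 0.30 with its other probe set at -0.14. These 4 had the smallest p of the list (limma adjusted p from 0.645 to 0.667).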

How the data were processed

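The submitters' processing notes name RMA and Partek, without versions or roles. The values the authors deposited are probe set signals on a log2 scale, as their range shows. Settings of RMA: not given in the sources used here. Of 45101 probe sets on 6 arrays, 64 controls were set aside. GEO's platform annotation gave 1 symbol to 34945 of the other 45037, several to 932 and none to 9160. All 36 Entrez identifiers matched RefSeq. Precision is limited by the number of arrays.

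Groups were compared with limma 3.58.1 (R 4.3.3; lmFit, eBayes, no covariate), adjusting by Benjamini-Hochberg over 45037 probe sets. Arrays came from independent transfections of 1 cell line, so p-values measure the spread between transfections. The fit was tested on simulated data with planted changes much larger than any difference of these genes. That test does not show whether changes of their size would be found. Over all probe sets, deviations of same-numbered arrays correlated with r of 0.155, 0.165 and 0.202. Numbers were taken as pairs for this reason, from the values alone. Over the genes described here the same r were only 0.010, 0.089 and 0.015, so these genes showed little pairing. The main fit left the pairs out, and they were used only for the replicate block and the differences within pairs. Values on every array are printed for the 12 genes with the smallest p and for genes with another probe set opposite by 0.2 or more. Those of Pcx, Ogdh and further probe sets of Pdha1, Aco1 and Acly were added after their values were seen. Genes, lists, motifs and tests were chosen with earlier results of these data known.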

Additional observations from a re-analysis of the deposited data

How the results depend on the processing

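On its representing probe set, no gene of the 36 passed an adjusted p of 0.05 under any alternative run, the lowest being 0.0699, for Idh1 with array weights. Array weights did call 4 other probe sets of these genes, given last here. The number at an unadjusted p under 0.05 was small and moved. Higher genes numbered 1 with the replicate block and 1 after centring, 5 with a linear offset of 32, 4 with a trend and robust prior and 4 with array weights, against 2 as reported, and 0 to 2 without single arrays. Lower genes numbered 2 with the offset and 2 with the trend, against 1, and 0 to 1 without single arrays. Groups without overlap numbered 4 to 13 higher and 3 to 5 lower without single arrays, and the median ran from 2.2e-04 to 0.11. Array weights without control replicate 3, chosen after seeing the data, gave 13 higher and a median of 0.11. The replicate block brought no probe set past an adjusted p of 0.05. Besides the changes among the 36 it took a dimmer probe set each of Dlst and Sucla2 under an unadjusted p of 0.05, and one each of Idh3a and Acly over it.

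Signs turned mostly for small values but also for Idh3b and Mdh1, where another probe set was read. They turned too for Dlat, where probe sets were averaged, and for Suclg2 without control replicate 3. The plain Idh3b probe set is dim, and the 2 Idh3b probe sets above the median signal were higher. Why probe sets of 1 gene differ was not tested. After centring, Idh2 was -0.040, Idh3a -0.030, Idh3g -0.044, Glud1 -0.047 and Slc25a11 -0.028. After repeated quantile normalization Idh2 was -0.013, Glud1 -0.026 and Slc25a11 -0.0100. With array weights Pcx was 0.051, Pdhb 0.037, Suclg1 0.056, Me1 0.085, Gpd1 -0.073 and Slc25a10 0.12. With array weights and without control replicate 3 Pcx was 0.088, Pdhb 0.064, Suclg1 0.090, Suclg2 0.063, Me1 0.055, Gpd1 -0.0086 and Slc25a10 0.21. When the probe sets of each gene were averaged, Pdhb was 0.042, Dlat -0.046, Dld -0.094, Me1 0.063, Gpd1 -0.018 and Slc25a10 0.13. On plain _at probe sets, which 31 of the 36 have, Idh3b was -0.11 and Mdh1 0.13. Without single arrays 22 of the 36 kept their sign throughout. The others ranged from -0.14 to 0.13 (Pcx), -0.079 to 0.086 (Pdhb), -0.035 to 0.0061 (Aco1), -0.066 to 0.15 (Idh2), -0.0265 to 0.059 (Idh3a), -0.070 to 0.10 (Idh3g), -0.050 to 0.25 (Ogdh), -0.075 to 0.051 (Suclg1), -0.27 to 0.062 (Suclg2), -0.14 to 0.0083 (Me1), -0.089 to 0.16 (Glud1), -0.026 to 0.18 (Gpd1), -0.20 to 0.18 (Slc25a10) and -0.040 to 0.092 (Slc25a11). With array weights limma called 1132 probe sets (2.51%), against 0 without control replicate 3. The 4 of these genes were Pdha1 at 0.40, Acly at -0.66 and -0.35 and Aco1 at -0.44 (adjusted p from 0.0401 to 0.0470). Mnx1 lay between -0.38 and -0.22 without single arrays and at -0.14 with array weights.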

Other observations

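Different probe sets of 1 gene often placed control replicate 3 at opposite ends. Of 23 genes with several probe sets brighter than the median, 7 had that array highest on one and lowest on another, namely Dlat, Idh2, Idh3a, Ogdh, Dlst, Me1 and Slc25a10 (30.4%, against 24.6% of 5170 genes). For Slc25a10, the dicarboxylate carrier, control replicate 3 read 9.41 on one probe set, above 8.64 and 8.80 on the other controls, and 5.87 on the other, below 6.48 and 6.72. For Dlst, the E2 of the 2-oxoglutarate complex, it read 6.56 on one dimmer probe set, above 6.29 and 5.89 on the other controls, and 5.99 on another, below 7.39 and 7.02.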
